A study of Homo sapiens with 4 samples.

Results

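The 30 genes described here are enzymes of glycolysis and genes that low oxygen is known to induce, and they were followed in T-47D cells given an artificial microRNA. They were taken as a fixed list of symbols, and each exon-level probeset that names exactly 1 of them was used, with PKM and KDM3A found under the older names PKM2 and JMJD1A. Of the 30 genes, 28 had a probeset in the table, 361 in all, and 27 could be tested among 15719 genes. GAPDH and PGAM1 had none, and the 1 probeset of TPI1 lay under the filter on dim probesets, with levels of 4.06 and 3.75 in mimic arrays and 3.42 and 3.45 in control arrays. All levels are log2 values as the authors normalized them, and every difference is mimic minus control on that scale.

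T-47D is an established line of luminal breast cancer cells, grown in DMEM with serum. The mimic group, 2 arrays, had received the artificial microRNA p-27-5p at 200 nM, and the control group, also 2 arrays, a pre-miR negative control whose dose is not listed on its own. TurboFect carried both into the cells, and total RNA was read on exon arrays. Since the labels do not tell whether a group stands for 2 cultures or for 1, the p-values cover array-to-array spread only, and this spread may be technical. In RNA from a whole culture, fewer cells that express a gene and less of its RNA per cell cannot be told apart. The labels name no oxygen tension and no time between transfection and harvest.

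Glycolysis splits glucose into pyruvate, and lactate dehydrogenase turns pyruvate into lactate when it is not passed to mitochondria. Hypoxia-inducible factor (HIF) raises many of these enzymes together with the glucose transporter SLC2A1 and the angiogenic factor VEGFA. In oxygen, prolyl hydroxylases mark the alpha subunit of HIF for destruction through VHL, and some of these hydroxylases, such as EGLN3, are themselves HIF targets, which closes a feedback loop. Breast cancer cells often use glycolysis strongly even in oxygen.

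HIF binds a short core sequence, ACGTG or GCGTG, and its matches are shown first because most of the genes are known as its targets. RefSeq promoter windows of GRCh38.p14, 300 bases each, from 250 bases before to 50 bases after a transcript start, were matched by symbol for 27 of the 30 genes. BNIP3L, NDRG1 and VEGFA were not matched, while the untested TPI1, GAPDH and PGAM1 were, so these 27 are not the 27 tested genes. Counted on both strands, 25 of 27 genes (92.6%) had a match in at least 1 of their windows, against 65.1% of 12587 tested genes, and 14 (51.9%) had at least 2 matches in 1 window, against 35.5%. Over windows, the share was 72.9% of 48, against 48.4% of 35116 in the whole table. A match overlaps the E-box CACGTG, which other factors bind, wherever that palindrome stands, and it then counts once on each strand. A match is a description of the letters and not a bound site. The windows printed here belong to HK2, BNIP3 and EGLN3, with the 3 largest positive differences, and to PDK1, with the second largest negative one. Capitals mark the matches, and for HK2 and PDK1, with 2 starts each, the window with more matches is shown. They lie at chr2:74834920-74835219 (HK2, plus strand), chr10:131981874-131982173 (BNIP3, minus strand), chr2:172555840-172556139 (PDK1, plus strand) and chr14:33951025-33951324 (EGLN3, minus strand).
HK2: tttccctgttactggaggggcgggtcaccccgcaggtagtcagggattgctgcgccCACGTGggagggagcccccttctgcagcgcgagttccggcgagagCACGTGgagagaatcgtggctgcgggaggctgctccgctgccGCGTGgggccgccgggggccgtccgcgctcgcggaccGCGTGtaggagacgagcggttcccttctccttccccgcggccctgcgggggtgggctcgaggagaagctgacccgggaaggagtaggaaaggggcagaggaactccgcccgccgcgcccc
BNIP3: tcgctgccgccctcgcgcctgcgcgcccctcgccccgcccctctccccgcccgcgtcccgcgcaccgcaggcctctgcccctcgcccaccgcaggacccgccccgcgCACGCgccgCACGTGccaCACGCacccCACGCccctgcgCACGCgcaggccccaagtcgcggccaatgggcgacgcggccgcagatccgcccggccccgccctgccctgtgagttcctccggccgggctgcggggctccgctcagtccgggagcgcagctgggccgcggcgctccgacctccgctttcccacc
PDK1: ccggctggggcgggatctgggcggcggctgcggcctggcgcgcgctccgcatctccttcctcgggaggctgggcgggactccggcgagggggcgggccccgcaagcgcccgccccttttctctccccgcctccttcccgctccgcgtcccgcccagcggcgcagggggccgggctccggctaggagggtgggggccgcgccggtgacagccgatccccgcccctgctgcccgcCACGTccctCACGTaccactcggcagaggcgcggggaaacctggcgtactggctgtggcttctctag
EGLN3: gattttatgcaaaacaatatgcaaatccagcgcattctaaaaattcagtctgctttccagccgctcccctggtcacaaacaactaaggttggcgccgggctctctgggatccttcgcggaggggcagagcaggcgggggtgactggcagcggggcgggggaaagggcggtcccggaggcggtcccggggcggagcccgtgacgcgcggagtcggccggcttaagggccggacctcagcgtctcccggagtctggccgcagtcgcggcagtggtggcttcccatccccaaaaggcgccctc
The HK2 and BNIP3 windows hold 6 matches each, the PDK1 window 2 and the EGLN3 window 0. Among the printed genes, chosen by their differences, those with and without matches had positive differences, and a gene with matches a negative one. Sequence outside the windows was not searched, and whether matches go with the differences was not tested.

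HK2, a hexokinase that takes part in the first step of glycolysis, was the 1 gene of the 27 that passed the test, and it was higher in mimic arrays. The other 26 did not pass. This is 1 of 27 (3.7%), against 2.31% of all genes tested, a share near that background. The 27 genes did not move one way: 14 differences were above 0 and 13 below, with a median of 0.06 against 0.00 for all genes. At an unadjusted p under 0.05, 5 genes were higher and 5 lower, 37% of 27 against 20.4% of all genes. The latter split into 7.65% higher and 12.8% lower. This count depended on the summary of a gene. With the median of probesets 3 were higher and 1 lower, against 16.7% of all genes. With the brightest probeset 4 were higher and 1 lower, against 14.5%. Both mimic arrays were over both controls for 9 genes and under both for 12, 77.8% together, against 50% of all genes, 20.5% of them higher and 29.5% lower. The 10 genes at an unadjusted p under 0.05 are HK2, EGLN3, BNIP3, KDM3A and VEGFA, which had positive differences, and BNIP3L, PDK1, PFKFB3, ALDOA and HK1, which had negative ones.

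**Figure D1:**
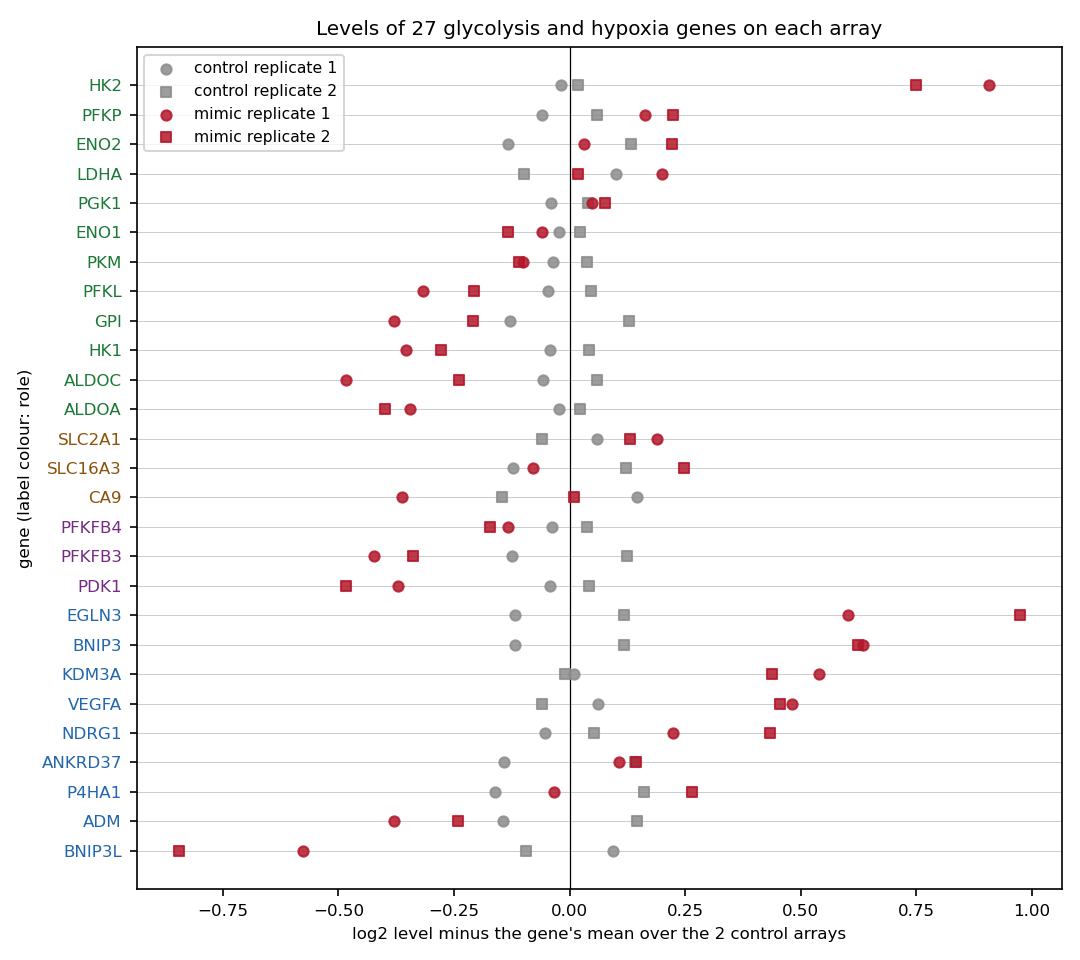
Log2 level of each of the 27 genes on the 4 arrays (x axis, after subtraction of the gene's mean over the 2 control arrays), with genes on the y axis coloured by role; grey points are control arrays and red points mimic arrays, circles replicate 1 and squares replicate 2. The red points of HK2, EGLN3, BNIP3, KDM3A and VEGFA lie to the right of both grey points, and those of BNIP3L, PDK1 and ALDOA to the left.

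Among glycolytic enzymes, 12 of the listed 15 were tested, of which HK2 rose, 11 did not pass and none fell. The median difference was -0.10, with 5 differences above 0 and 7 below. HK2 had levels of 6.12 and 5.96 in mimic arrays and of 5.19 and 5.23 in control arrays. The groups did not overlap, and the gap between them was larger than the spread within either. HK2 rose by 0.83 (SE 0.127), a 1.78-fold change, with a 95% confidence interval from 0.51 to 1.15 and a limma adjusted p of 0.046. All 5 of its probesets that passed the filter had both mimic arrays above both control arrays, with differences from 0.24 to 1.28, and none of them passed the test on its own. They were read on the same arrays, and groups did not overlap, up or down, in 47.8% of all probesets. The sixth probeset of HK2, under the filter, had -0.21. Settings that ended the call include leaving out mimic replicate 1 (0.75, adjusted p = 0.275), leaving out mimic replicate 2 (0.91, adjusted p = 0.162), equal array medians (adjusted p = 0.051), the median of its probesets (adjusted p = 0.085) and its brightest probeset, where the difference was 1.28 (adjusted p = 0.273). The adjusted p ranged from 0.0119 to 0.275 over 13 alternatives and was under 0.05 in 7 of them. The control level of HK2 lay within the range of genes that serve as background in these cells, where differences can understate a change. The 14 background genes themselves had differences from -0.42 to 1.02, 8 above 0 and 6 below, with a median of 0.10, and limma called 0. The 1.02 was that of CYP3A4, whose 1 probeset had 5.98 and 3.62 in mimic arrays. The next largest was 0.51, for FGG. Whether the rise of HK2 differs from such shifts was not tested.

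HK1, the hexokinase found in most tissues, had 8.67 and 8.75 in mimic arrays and 8.98 and 9.07 in control arrays. The difference of -0.32 (SE 0.122) did not pass (adjusted p = 0.235). Of its 25 probesets used, 23 had a difference below 0. In 18 both mimic arrays were under both controls, while groups did not overlap, up or down, in 47.8% of all probesets. The difference of HK2 thus stood 1.14 above that of HK1, with 1.26 and 1.03 in the mimic arrays and 0.02 and -0.02 in the control arrays when the within-array difference is set to a control mean of 0. With 2 arrays against 2, an exact two-sided permutation test gave p = 0.333, the smallest this design can give. The difference was compared in this way within 6 pairs of related genes, and the p of 0.333 came to 0.5 after Benjamini-Hochberg adjustment over them.

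The aldolases ALDOA and ALDOC, which split fructose-1,6-bisphosphate, both had lower levels in mimic arrays. ALDOA had 9.11 and 9.06 in mimic arrays and 9.43 and 9.48 in control arrays, a difference of -0.37 (SE 0.119, adjusted p = 0.172). Its probesets did not share that size: their median was -0.12, the probeset 3655929 had -1.96 at a dim level of 5.69 in controls and 3.73, under the filter, in mimic arrays, and with the brightest probeset the gene had -0.018. The 5 probesets of ALDOA above 11 in control arrays had differences from -0.43 to -0.018, and the gene had -0.13 with the filter at the table's median. ALDOC had 8.91 and 9.16 in mimic arrays and 9.34 and 9.45 in control arrays, a difference of -0.36 (SE 0.143, adjusted p = 0.245), with all 7 probesets below 0. The differences of ALDOC and ALDOA lay 0.01 apart, and the groups overlapped (exact two-sided permutation p = 1).

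Of the phosphofructokinase subunits, which run the committed step, PFKL had -0.26 (adjusted p = 0.317) and PFKP 0.19 (adjusted p = 0.446). The remaining subunit, PFKM, is not a gene of the set and had -0.47 (adjusted p = 0.166). PFKL was lower on 23 of 27 probesets and PFKP higher on 19 of 25. The difference of PFKP stood 0.46 above that of PFKL, at 0.48 and 0.43 in the mimic arrays and -0.01 and 0.01 in the control arrays, with an exact two-sided permutation p of 0.333, again the smallest possible. GPI, the glucose-6-phosphate isomerase, had 10.02 and 10.19 in mimic arrays and 10.27 and 10.53 in control arrays, a difference of -0.29 (adjusted p = 0.35) and 0.014 with its brightest probeset.

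The enzymes of the later steps had differences between -0.11 and 0.13. PGK1, phosphoglycerate kinase, had 12.09 and 12.12 in mimic arrays and 12.00 and 12.09 in control arrays on its 1 probeset, a difference of 0.06 with a 95% interval from -0.24 to 0.36. ENO1, the common enolase, had -0.10 (from -0.40 to 0.21), and ENO2, the neuronal enolase, 0.13 (from -0.26 to 0.52). ENO2 stood 0.22 above ENO1, with overlapping groups (exact two-sided permutation p = 0.667). PKM, pyruvate kinase, had -0.11 (from -0.41 to 0.19), and LDHA, the lactate dehydrogenase subunit raised in many tumours, 0.11 (from -0.25 to 0.47). None of these 5 passed (adjusted p from 0.665 to 0.806), and their intervals reach from -0.41 at the lowest to 0.52 at the highest. PKM held 1 probeset apart: 3632031 had 7.83 and 7.82 in mimic arrays and 9.12 and 9.01 in control arrays, a difference of -1.24 (adjusted p = 0.0761 over all probesets), while the other 9 ranged from -0.25 to 0.18. That probeset was singled out after its values were seen. Many glycolytic enzymes have processed pseudogenes, and whether probes of these genes also read such copies was not tested.

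**Figure D2:**
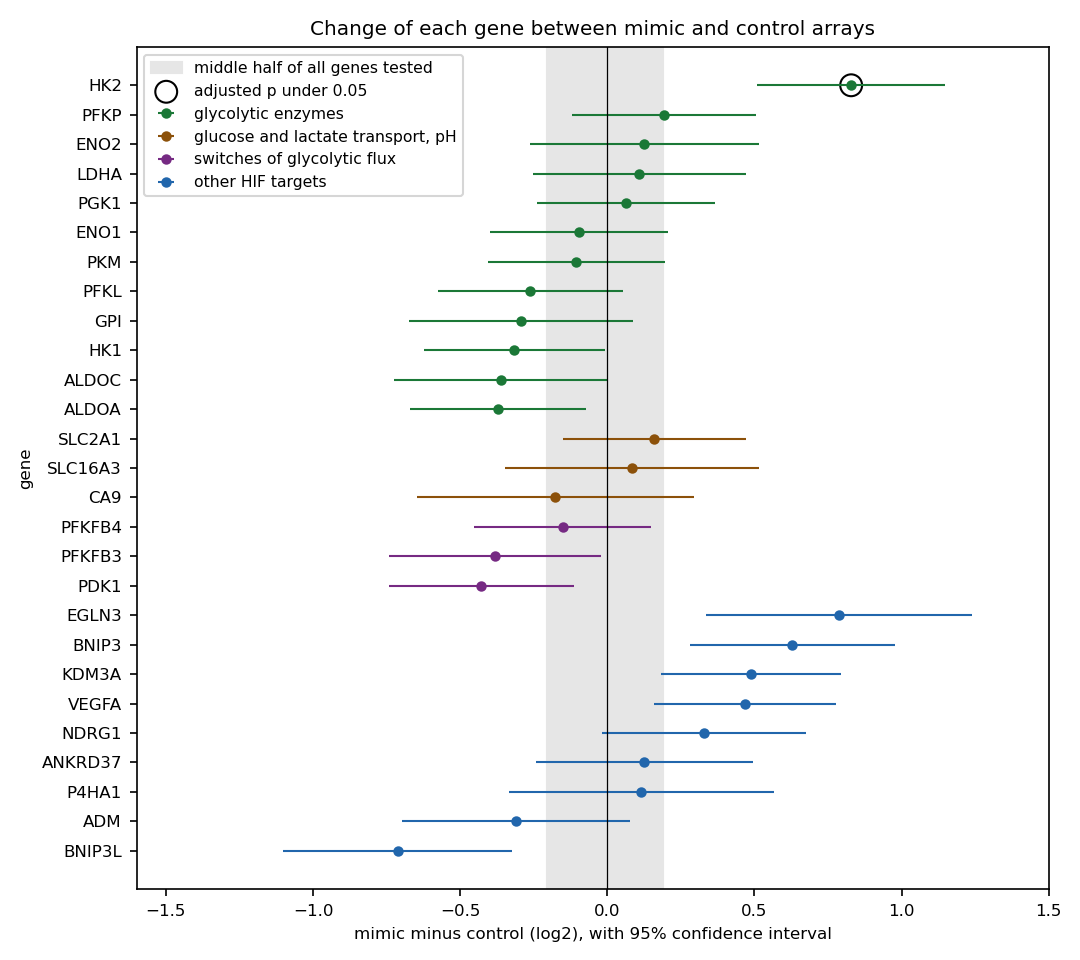
Difference between mimic and control arrays (log2, x axis) for the 27 genes (y axis), with limma's 95% confidence interval; colours give the role, the grey band spans all genes tested between their quartiles, from -0.20 to 0.19, and the black circle marks the gene past the threshold. HK2 alone is circled, EGLN3, BNIP3, KDM3A and VEGFA have intervals above 0, and BNIP3L, PDK1, PFKFB3, ALDOA and HK1 have intervals below 0.

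None of the 3 genes of glucose uptake and acid export passed the test. SLC2A1, the glucose transporter GLUT1, had 8.49 and 8.43 in mimic arrays and 8.36 and 8.24 in control arrays, a difference of 0.16 with an interval from -0.15 to 0.47 (adjusted p = 0.525). SLC16A3, the lactate exporter MCT4, had 0.08 (from -0.35 to 0.52), and its sign turned without mimic replicate 2 (-0.078) and without control replicate 1 (-0.037). CA9, a carbonic anhydrase of the cell surface and a widely used hypoxia marker, had 5.07 and 5.44 in mimic arrays and 5.57 and 5.28 in control arrays. These overlap, the difference was -0.18 (from -0.65 to 0.29), and its sign turned without mimic replicate 1 (0.0092) and with a filter at the table's median (0.072).

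The enzymes that set flux into and out of glycolysis all had lower values, and none passed. PDK1, the kinase that switches off pyruvate dehydrogenase, had 7.19 and 7.08 in mimic arrays and 7.52 and 7.60 in control arrays. The groups did not overlap, and the difference was -0.43 (SE 0.124, adjusted p = 0.148). Of its 18 probesets used, 16 were below 0. In 12 both mimic arrays were under both controls, while groups did not overlap, up or down, in 47.8% of all probesets. PFKFB3, which makes the allosteric activator fructose-2,6-bisphosphate, had 9.62 and 9.70 in mimic arrays and 9.92 and 10.17 in control arrays, a difference of -0.38 (SE 0.142, adjusted p = 0.222) with 17 of 18 probesets below 0. Its relative PFKFB4 had -0.15 (adjusted p = 0.534), and 0.18 with its brightest probeset. PFKFB3 minus PFKFB4 was -0.23, without overlap of the groups (exact two-sided permutation p = 0.333).

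Of the 9 other HIF targets, 7 had a difference above 0 and none passed; their median was 0.33, against 0.00 for all genes. EGLN3, the oxygen-sensing prolyl hydroxylase PHD3, had 5.74 and 6.11 in mimic arrays and 5.02 and 5.26 in control arrays. The groups did not overlap, and the difference was 0.79 (SE 0.179), a 1.73-fold higher level (adjusted p = 0.0995). BNIP3, a mitochondrial protein that calls for mitophagy, had 11.20 and 11.19 in mimic arrays and 10.45 and 10.68 in control arrays. Its difference was 0.63 (SE 0.137, adjusted p = 0.0935), read by 1 probeset. VEGFA, the main growth signal for blood vessels, had 7.59 and 7.56 in mimic arrays and 7.17 and 7.05 in control arrays, a difference of 0.47 (SE 0.123, adjusted p = 0.126). KDM3A, an oxygen-dependent histone H3K9 demethylase, had 7.27 and 7.16 in mimic arrays and 6.73 and 6.72 in control arrays, a difference of 0.49 (SE 0.121, adjusted p = 0.115). With their brightest probesets, VEGFA had 0.75 and KDM3A 0.31, and EGLN3 had 0.51 with the filter at the table's median.

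BNIP3L, the relative of BNIP3 that clears mitochondria as red cells mature, had a negative difference instead. It had 8.61 and 8.35 in mimic arrays and 9.28 and 9.10 in control arrays, a difference of -0.71 (SE 0.154), a 1.64-fold lower level (adjusted p = 0.0916). All 12 of its probesets were below 0. In 10 both mimic arrays were under both controls, while groups did not overlap, up or down, in 47.8% of all probesets. The difference of BNIP3L with its brightest probeset was -0.26 (adjusted p = 0.456). Set within arrays to a control mean of 0, BNIP3 minus BNIP3L was 1.21 and 1.47 in the mimic arrays and -0.21 and 0.21 in the control arrays, a difference of 1.34 with an exact two-sided permutation p of 0.333, the smallest possible. Without control replicate 2, BNIP3 (0.75, adjusted p = 0.0374), BNIP3L (-0.81, adjusted p = 0.0328) and EGLN3 (0.91, adjusted p = 0.0221) passed the test.

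ADM, the vasodilator peptide adrenomedullin, had 7.43 and 7.57 in mimic arrays and 7.67 and 7.96 in control arrays, a difference of -0.31 (adjusted p = 0.332). NDRG1, a stress-induced gene, had 6.71 and 6.92 in mimic arrays and 6.43 and 6.54 in control arrays, a difference of 0.33 (adjusted p = 0.264), and -0.080 with its brightest probeset. P4HA1, a collagen prolyl hydroxylase, had 0.12 (from -0.34 to 0.57) and ANKRD37 0.13 (from -0.24 to 0.49), and the groups of both overlapped. Without control replicate 1 these were -0.046 and -0.016, and without mimic replicate 2 P4HA1 had -0.033.

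**Figure D3:**
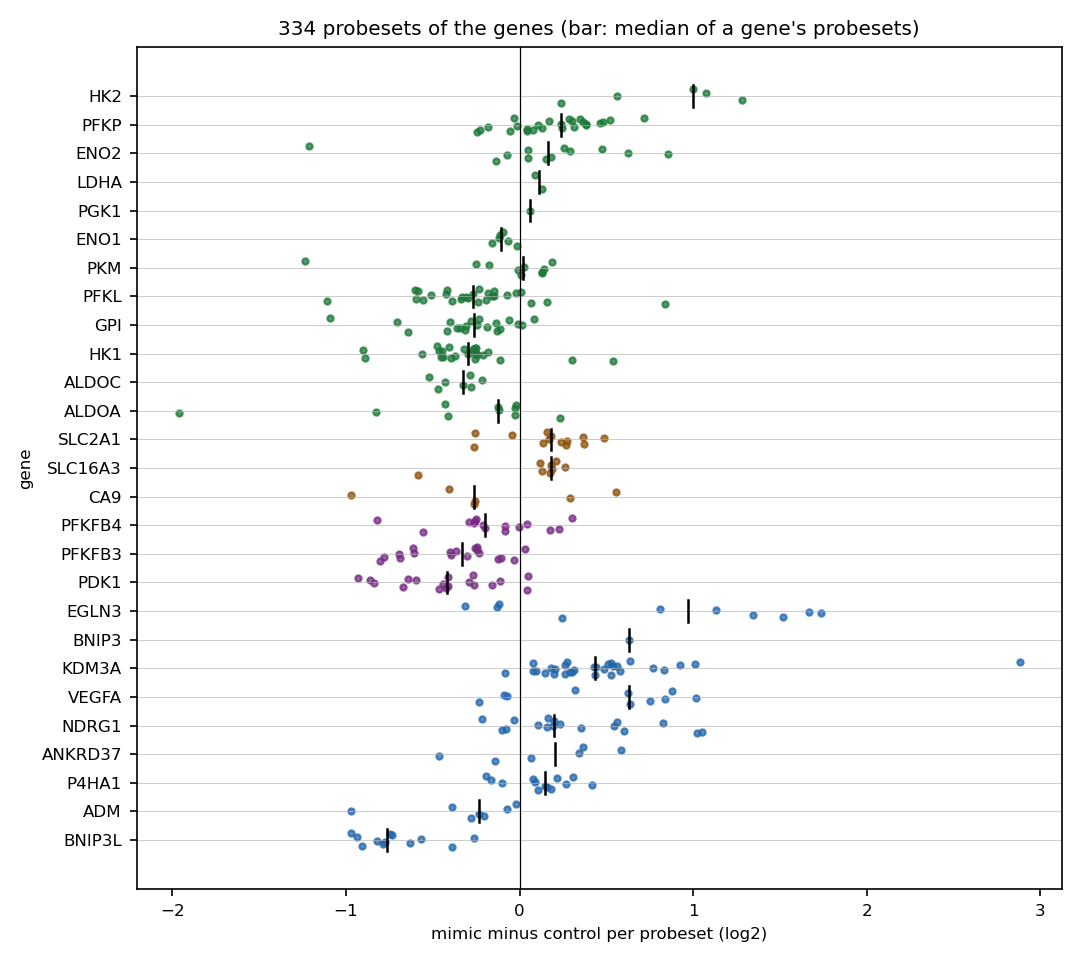
Difference between mimic and control arrays of each of the 334 probesets used (x axis, log2), by gene (y axis), with a black bar at the median of a gene's probesets. The probesets of BNIP3L, ALDOC, ADM and ENO1 all lie below 0 and the 5 of HK2 all above, while those of EGLN3 lie on both sides and 1 probeset of KDM3A stands at 2.88.

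Single probesets were tested over all 163774 that passed the filter and name exactly 1 gene, called all probesets here. Of the 334 that belong to these genes, 1 passed (0.299%), against 0.918% of all probesets. Both mimic arrays lay on one side of both control arrays in 192 (57.5%), against 47.8% of all. In 7 of the 334 the mean of 1 group lay under the filter, so that only the other group brought them past it. The 1 that passed was 2492133 of KDM3A, with 6.97 and 7.15 in mimic arrays and 4.47 and 3.88 in control arrays. Its difference of 2.88 (SE 0.262, adjusted p = 0.0189) compares with a median of 0.43 over the 30 probesets of KDM3A, of which 29 were above 0 and 17 had both mimic arrays above both control arrays. It missed the threshold without either mimic array, where 0 probesets of these genes passed. Whether it differs from the rest of KDM3A was not tested.

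The probesets of EGLN3 were uneven as well. The 5 with ID numbers from 3560418 to 3560423 had differences from 1.13 to 1.74, and in each both mimic arrays were over both controls. The one with the largest difference, 3560421, had a control mean of 3.90, under the filter on dim probesets, so it was used only because of its higher mimic arrays. With no filter the gene's difference was 0.58. The 3 with numbers from 3560439 to 3560441 had -0.13, -0.31 and -0.12, among them the brightest, at 7.46 in mimic and 7.58 in control arrays. The gene's difference therefore was -0.12 with the brightest probeset and 0.79 with the mean, and this split was seen in the values and not tested. Of the VEGFA probesets, 6 of 10 had both mimic arrays above both control arrays, with differences from 0.32 to 1.02. Groups did not overlap, up or down, in 47.8% of all probesets.

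**Figure D4:**
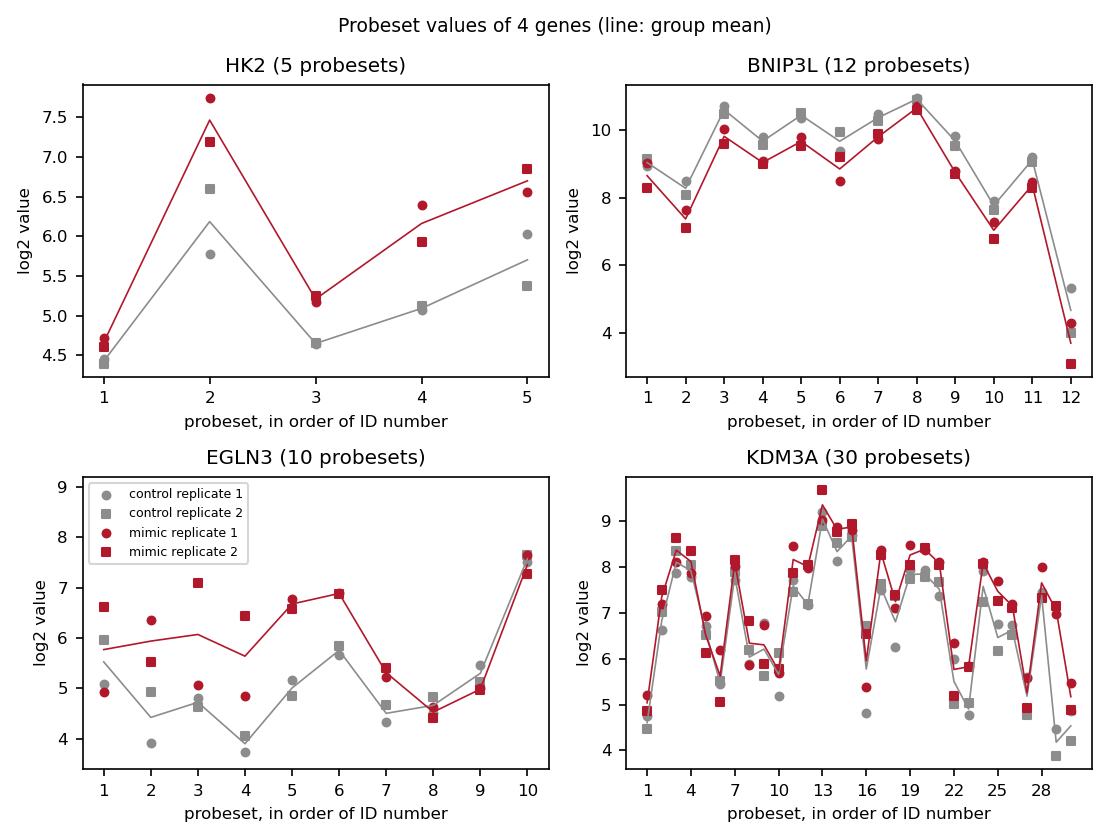
Log2 values (y axis) of the probesets of HK2, BNIP3L, EGLN3 and KDM3A on the 4 arrays, in order of probeset ID number (x axis); grey is control, red is mimic, and lines join group means. HK2 is higher and BNIP3L lower across the gene, EGLN3 is higher on some probesets and not on its last 3, and KDM3A differs most at the probeset next to last.

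The other genes of these pathways came from lists put together with earlier results of these data known. Of 9 HIF subunits and oxygen sensors, 0 passed limma's test, and at an unadjusted p under 0.05 1 was higher and 1 lower, against 7.65% and 12.8% of all genes. HIF1AN, the asparagine hydroxylase that blocks HIF activity, had 8.98 and 9.13 in mimic arrays and 9.77 and 10.00 in control arrays, a difference of -0.83 (adjusted p = 0.0604). EGLN1, the main HIF prolyl hydroxylase, had 0.33 (adjusted p = 0.23), and EPAS1, the HIF-2 alpha subunit, 0.20 (adjusted p = 0.417). HIF1AN passed without control replicate 1 (-0.95, adjusted p = 0.00647) and without control replicate 2 (-0.72, adjusted p = 0.0497), and with its brightest probeset it had -0.55 (adjusted p = 0.237).

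Of 32 tested genes that low oxygen is known to induce, beyond those above, 2 rose and 1 fell, against 1.52% higher and 0.789% lower among all genes. CXCR4, a chemokine receptor, rose by 1.40 (SE 0.129), from 3.83 and 4.01 in control arrays to 5.30 and 5.32 in mimic arrays (adjusted p = 0.0096), below the highest background gene throughout. In 3 of its 5 probesets used the control mean lay under the filter on dim probesets, so these were used only because of their higher mimic arrays. CXCR4 had 1.06 with no filter, 2.50 with its brightest probeset and no value with the filter at the table's median. CITED2, which competes with HIF for its coactivator, rose by 0.82 (SE 0.121), from 8.58 and 8.59 to 9.46 and 9.36 (adjusted p = 0.0417). MIF, an inflammatory cytokine, had 9.83 and 9.88 in mimic arrays against 10.61 and 10.80 in control arrays, a fall with a difference of -0.85 (SE 0.130, adjusted p = 0.047). INSIG2, TFRC and HILPDA had -0.58, -0.40 and -0.35 and did not pass. Without mimic replicate 1 or 2, CITED2 had 0.77 and 0.88 (adjusted p = 0.258 and 0.17) and MIF -0.83 and -0.87 (adjusted p = 0.239 and 0.188). The list median was 0.08. With the median of probesets and with the brightest probeset, CITED2 had 0.79 and 0.75 (adjusted p = 0.0976 and 0.211) and MIF -0.94 and -0.58 (adjusted p = 0.0922 and 0.228), and with equal array medians MIF had -0.83 (adjusted p = 0.0511).

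Among 18 known regulators of glycolytic genes, 1 fell and none rose, against 0.789% lower and 1.52% higher among all genes. PRKAA2, a catalytic subunit of the energy sensor AMPK, fell, with a level of 7.03 ± 0.044 (SD, n = 2) in mimic arrays against 8.40 and 8.16 in control arrays, a difference of -1.25 (SE 0.140, adjusted p = 0.0181). Without mimic replicate 1 or 2 it had -1.28 and -1.22 (adjusted p = 0.0679 and 0.0775), and it also missed the threshold with the median of probesets (-1.12, adjusted p = 0.064) and the brightest probeset (-1.18, adjusted p = 0.146). MTOR had -0.43 (adjusted p = 0.14), MYC 0.53 (adjusted p = 0.177, with an adjusted p of 0.0494 without control replicate 1 and a difference of 0.24 with its brightest probeset) and TXNIP, a brake on glucose uptake, 0.31 (adjusted p = 0.244).

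The other isozymes and transporters of glycolysis had 0 of 22 genes past limma's test and a median of 0.00. At an unadjusted p under 0.05, 4 were higher and 5 lower, against 7.65% and 12.8% of all genes. SLC16A1, the lactate carrier MCT1, had 0.54 (adjusted p = 0.0981) and 0.22 with its brightest probeset, BPGM -0.58 (adjusted p = 0.131) and PFKFB2 -0.46 (adjusted p = 0.132), and BPGM passed without control replicate 1 (-0.69, adjusted p = 0.0411). Of 7 genes of the pentose phosphate pathway, 0 passed and 0 had an unadjusted p under 0.05. Of these, RPIA, PGD and TKT had 0.26, -0.24 and -0.22.

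Genes of glycogen metabolism and gluconeogenesis stood mostly below 0: 13 of 15 differences were negative, against 7806 of 15719 over all genes, 4 were lower and 0 higher at an unadjusted p under 0.05, against 12.8% and 7.65% of all genes, and limma called 0. Their median was -0.22. FBP1, which opposes phosphofructokinase in gluconeogenesis, had 7.61 and 7.79 in mimic arrays and 8.49 and 8.54 in control arrays, a difference of -0.82 (SE 0.130, adjusted p = 0.0507), and PC and PGM1 had -0.48 and -0.44. FBP1 passed without control replicate 1 (adjusted p = 0.0139) and without control replicate 2 (adjusted p = 0.0311), and with its brightest probeset it had -0.41 (adjusted p = 0.39). Of 26 genes of pyruvate dehydrogenase and the TCA cycle, 19 were below 0 with a median of -0.19, and limma called 0. At an unadjusted p under 0.05, 4 were lower and 1 higher, shares near the 12.8% and under the 7.65% of all genes. Both mimic arrays were under both controls for 18 of the 26 and over both for 6, against 29.5% and 20.5% of all genes. IDH2 had -0.79 (adjusted p = 0.0604), SDHC -0.78 (adjusted p = 0.111) and SDHD 0.42 (adjusted p = 0.163), and without control replicate 1 IDH2 (-0.88, adjusted p = 0.00973) and SDHC (-1.02, adjusted p = 0.00413) passed.

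**Figure D5:**
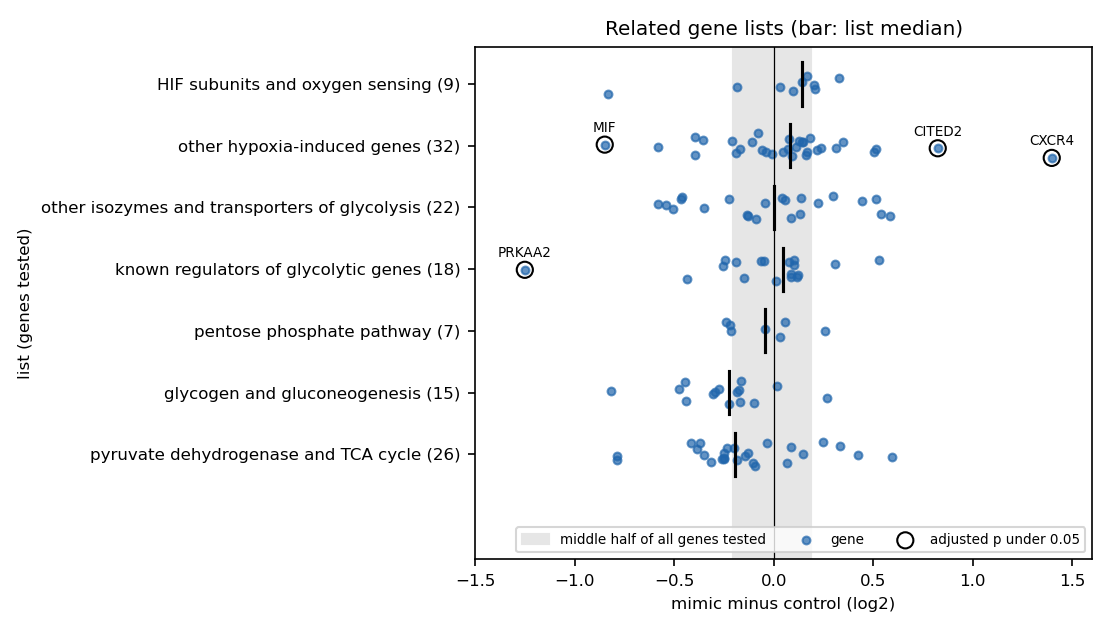
Difference between mimic and control arrays (x axis, log2) of each tested gene of 7 related lists (y axis, with the number of genes tested), with a bar at the list median, a grey band between the quartiles of all genes tested and circles on genes past the threshold. CXCR4 and CITED2 stand to the right and MIF and PRKAA2 to the left, and the lists of glycogen and gluconeogenesis and of the TCA cycle have medians of -0.22 and -0.19.

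The labels call the cells breast cancer cells, and markers of luminal breast epithelium were present: 12 of 12 were tested, with control levels from 8.57 to 12.40. The median control level was 4.90 for 8 fibroblast markers, 5.25 for 6 endothelial and 5.79 for 7 leukocyte markers, against 4.79 for 14 genes of liver and neurons taken as background, of which SYT1 at 6.85 and SYN1 at 5.68 were the highest. Control levels of 4 of the 27 genes, HK2, EGLN3, CA9 and ANKRD37, lay at or below 5.68, and of 7 at or below 6.85. Differences of such genes can understate a change, and the 14 background genes themselves had differences from -0.42 to 1.02. The upper end was CYP3A4, with 5.98 and 3.62 in mimic arrays, and the next largest was FGG at 0.51. Of the luminal markers, 9 of 12 had differences below 0. At an unadjusted p under 0.05, 5 of the 12 were lower and 0 higher, against 12.8% and 7.65% of all genes. The log2 levels of the list summed to between 118 and 120 in mimic arrays and to between 121 and 123 in control arrays. TFF3, an estrogen-induced gene, fell by 0.99 on the log2 scale (adjusted p = 0.0417). TFF3 missed the threshold without mimic replicate 1 (-0.91, adjusted p = 0.201) or 2 (-1.08, adjusted p = 0.112), with the median of probesets (adjusted p = 0.105) and with the brightest (adjusted p = 0.143). All 8 fibroblast markers had differences above 0, and 0 of them passed limma's test. At an unadjusted p under 0.05, 2 of the 8 were higher, against 7.65% of all genes. Their summed log2 levels ran from 42.7 to 43.5 in mimic and from 39.2 to 41.1 in control arrays. The part of these markers in the results was not tested. Values of all probesets correlated with r = 0.985 between the mimic arrays, 0.984 between the control arrays and 0.966 to 0.973 across groups.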

How the data were processed

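The deposited values are on the log2 scale, 1 per probeset (a few probes within about 1 exon) and array, and were normalized by the authors. The arrays did not share 1 distribution: the range between quartiles was 4.18 and 4.32 in mimic arrays and 4.25 and 4.52 in control arrays. Its part in the differences of dim and bright genes and in the list medians was not tested. Partek, RMA and hg18 appear in the submitters' processing notes, which give neither versions nor the sequence of steps. Scanner files and detection calls were not used here. Depth is not defined for arrays, and their number limits the precision. Symbols are those of GEO's platform table, brought up to date with RefSeq synonyms.

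For each gene, probesets with a mean over the 4 arrays of at least 4.08, the 25th percentile of the table, were averaged. The test was limma's moderated one (version 3.58.1, R 4.3.3; lmFit, eBayes), two-sided, on gene means and again on single probesets. Adjusted p-values are Benjamini-Hochberg over all genes or all probesets tested, and under 0.05 a gene or probeset counts as passing. Probesets that name no gene or several were not tested. Residual degrees of freedom were 2, or 5.29 including the prior. SE is the moderated one. The script was tested on simulated data. The genes and lists were chosen with earlier results of these data known. All tested genes of the set are named. From each related list those passing are named, and up to 3 others with the smallest p. PFKM is added beside the other phosphofructokinase subunits. Alternatives changed the replicate block, the normalization (quantile, equal array medians), the filter (none, table's median), the summary of a gene (its median or brightest probeset) and the variance model (intensity trend, robust), and left out each array in turn.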

Additional observations from a re-analysis of the deposited data

How the results depend on the processing

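HK2 lost its call in 6 of 13 alternatives. The design text speaks of paired mimic and control samples, and the labels share replicate numbers without saying what a number marks. The deviations of same-numbered arrays correlated with r = 0.281 over all probesets and 0.445 over the 27 genes, with 2 pairs. With the replicate block, 498 genes and 1 of the 27 passed, EGLN3 (adjusted p = 0.0498) in place of HK2 (adjusted p = 0.051), as did HIF1AN, IDH2 and FBP1 (adjusted p = 0.045, 0.0468 and 0.0483) and 0 of the 334 probesets. Of the 27 genes, limma called 0 with equal array medians, the median of probesets and the brightest probeset. At an unadjusted p under 0.05 these settings gave 11, 4 and 5 of the 27, against 20.3%, 16.7% and 14.5% of all genes. Limma called 6 without a filter and 7 with an intensity trend. Leaving out 1 array gave 0 to 4. Of all genes, 1433 passed without a filter, 1594 with an intensity trend, 122 with the brightest probeset, and 172 to 1691 with 1 array left out. Of the 334 probesets, 2 passed with quantile normalization and 11 with an intensity trend, and 0 to 1 with 1 array left out. The median difference of the 27 genes was -0.0091 with the median of probesets and -0.060 to 0.019 with 1 array left out. The median of all genes ran from -0.045 with the filter at the table's median to 0.050 with the brightest probeset. In the latter setting the median of the 27 genes was 0.014.

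Of the 27 genes, 17 kept their direction in all 13 alternatives. The sign turned with the brightest probeset for EGLN3 (-0.12), NDRG1 (-0.080), ANKRD37 (-0.46), GPI (0.014), PFKFB4 (0.18), PKM (0.14) and, of other lists, MTOR (0.14), PC (0.10), TFRC (0.038) and TKT (0.041). It turned with the filter at the table's median for ANKRD37 (-0.46) and CA9 (0.072), and with the median of probesets for P4HA1 (-0.093). With 1 array left out, differences ranged from -0.36 to 0.0092 for CA9, -0.078 to 0.25 for SLC16A3, -0.046 to 0.28 for P4HA1, -0.016 to 0.27 for ANKRD37 and -0.0066 to 0.26 for ENO2. The causes were not tested.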
